A study of Mus musculus with 16 samples.

Results

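The 252 genes described here carry a mouse Zfp name (zinc finger protein), are annotated as protein-coding and had a mean of at least 1 TPM, the length-scaled share of a library's transcripts, over 16 mouse liver libraries. They were drawn from 399 protein-coding Zfp genes in the deposited table, and they belong to the 11766 genes of any kind that reached the same mean and were tested together. The level that chose them is the mean over all mice, so it is given below as a description. The 3 members nearest the limit were Zfp719 at 1.02, Zfp354b at 1.02 and Zfp111 at 1.01 TPM, and the 3 genes just under it were Zfp267 at 0.998, Zfp784 at 0.994 and Zfp407 at 0.952 TPM. Of the 147 genes under the limit, 11 were listed at 0 in every library. Because the mean runs over all groups, 228 of the 252 members reached 1 TPM in each group, and 24 were under it in at least 1 group. Members at 1 TPM or more numbered 250 in the control group, 231 in the Cd group, 252 in the Cd+Se group and 246 in the Se group.

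All mice were wild-type young adult C57BL/6J males, and each library came from the liver tissue of 1 mouse. The control group (mice 27 to 30) received neither agent. The Cd group (mice 1, 2, 5 and 6) was injected intraperitoneally each day for 7 days with CdCl2 at 1.25 mg/kg. The Se group (mice 39, 40, 41 and 44) ate grain with selenomethionine (SeMet) at 2 ppm for 3 months, and the Cd+Se group (mice 13 to 16) received that diet with the same CdCl2 injections in the last 7 days. In whole liver, fewer cells of a type and less RNA per cell cannot be told apart.

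Zinc finger proteins fold short loops around a zinc ion held by cysteine and histidine side chains. In the C2H2 class the loops are lined up in arrays, most of which read DNA, and a large vertebrate subgroup carries a KRAB domain in front of the array. KRAB proteins recruit the corepressor TRIM28 (KAP1) and the histone methyltransferase SETDB1, and many of them silence retroviral sequences. The CCCH class, to which Zfp36 and its relatives belong, binds AU-rich messenger RNA and speeds its decay. Cadmium binds the same kind of sulphur ligands as zinc, and in liver it induces the metallothioneins, whose genes are switched on by the zinc finger factor MTF-1.

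The arrays are recognisable at the DNA level by the linker that joins one finger to the next. The coding stretch from the last histidine of a finger through the linker residues threonine, glycine, glutamate, lysine or arginine, and proline to the first cysteine of the next finger was found 1173 times, in 191 of the 252 members. The stretches below are shown because they belong to members described below, which are 3 that fell and 2 that rose with Cd and the 2 most abundant ones. They are taken from GENCODE M21 transcripts (build GRCm38), read along the coding strand, with the zinc-binding histidine and cysteine codons in capitals.
Zfp961, chr8:71968470-71968496, + strand, exon 4 of 4: CACactggggagaaaccttttgaaTGT
Zfp664, chr5:124885868-124885894, + strand, exon 4 of 4: CACactggggagaagccgtacgtcTGC
Zfp768, chr7:127344007-127344033, - strand, exon 2 of 2: CATaccggcgagaagccttacaaaTGT
Zfp53, chr17:21508532-21508558, + strand, exon 5 of 5: CATactggggagaagccttacaaaTGC
Zfp715, chr7:43299125-43299151, - strand, exon 4 of 4: CATacgggtgagaagccttatgaaTGC
Zfp445, chr9:122852883-122852909, - strand, exon 7 of 7: CATacaggggagaaaccgtaccagTGT
Zfp970, chr2:177475007-177475033, + strand, exon 4 of 4: CATacaggagagaaaccctatgaaTGT

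In Zfp970 the stretch is repeated almost without change: 10 of its 12 linkers have exactly the sequence shown, and 9 of the steps between neighbouring linkers are 84 bases, the length of 1 finger with its linker. Such repeats also occur between genes. For 12 members, more than 50% of the 100-base stretches of the longest coding transcript were found in transcripts of another gene, among them Zfp967, Zfp969, Zfp965 and Zfp968, so their values are uncertain because reads may be divided between copies. For Zfp970 the share was 19.4%, and 169 members shared none.

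The libraries differed in the level of moderately expressed genes as a class. The median log2(TPM + 1) over the 11766 genes lay between 3.11 and 3.20 in the control group, between 3.11 and 3.18 in the Cd+Se group and between 3.06 and 3.36 in the Se group. In the Cd group it was 3.12 in mouse 1, 3.08 in mouse 2, 2.68 in mouse 5 and 2.90 in mouse 6. Cd mice 5 and 6 stood below every other library. The mean of the Zfp members followed: it was 1.91 in Cd mouse 5 and 2.07 in Cd mouse 6, and between 2.20 and 2.40 in the other libraries. The median of the Cd group was lower than that of the control group by 0.22 on the log2 scale, which did not reach the threshold (exact two-sided permutation test of 4 against 4 libraries, p = 0.0571; the smallest p possible is 0.0286). Mitochondrially encoded transcripts took 22.2% and 18% of all TPM in Cd mice 5 and 6, 13% and 12.8% in Cd mice 1 and 2, and between 13.6% and 17.3% in the other groups. The main counts are therefore given on the TPM as deposited, after each library was centred on its own median, and without Cd mice 5 and 6.

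**Figure D1:**
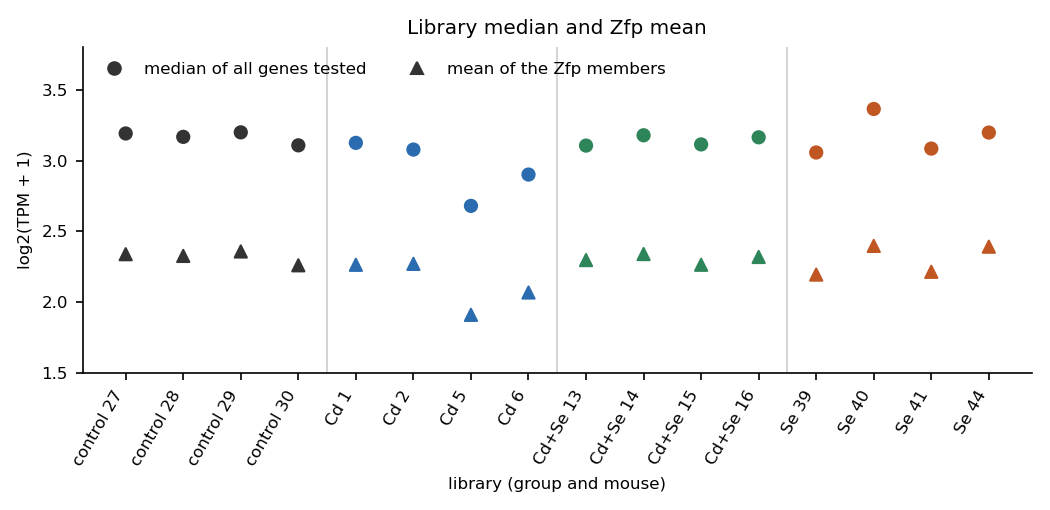
Median log2(TPM + 1) of the 11766 genes tested (circles) and mean log2(TPM + 1) of the 252 Zfp members (triangles) in each of the 16 libraries, by group and mouse. Both measures are lowest in Cd mice 5 and 6, where the Zfp mean is 1.91 and 2.07.

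The metallothioneins matched the labels. Mt1 was at 116 ± 73.3 TPM in the control group, 4066 ± 707 in the Cd group, 4880 ± 1274 in the Cd+Se group and 261 ± 158 in the Se group (mean ± SD, n = 4). Mt2 rose from 69.2 ± 55.1 TPM in control liver to 3471 ± 901 TPM with Cd (log2 difference 5.88, adjusted p = 5.7e-05). Cell type markers moved with Cd as well, and their part in the Zfp results was not tested. Of 8 Kupffer cell markers, 7 were lower in the Cd group, and their summed level was 43.3 to 63.6 TPM against 116 to 141 TPM in the control group and 48.6 to 78.0 TPM in the Cd+Se group. Of 8 neutrophil markers 4 could be tested and 3 were higher, with a summed level of 33.7 to 43.2 TPM against 6.83 to 16.9 TPM in the control group and 47.0 to 77.7 TPM in the Cd+Se group. All 10 hepatocyte markers were present, with 2 lower and 0 higher in the Cd group. Of 8 sinusoidal endothelial markers 2 were lower and 1 higher, of 6 stellate cell markers tested 1 was lower, and the single cholangiocyte marker and the single lymphocyte marker tested did not pass. These calls are on the TPM as deposited. After centring 6 Kupffer markers were lower, 4 neutrophil markers higher, and 2 hepatocyte markers lower and 2 higher. Of the endothelial markers 0 were then lower and 1 higher, and of the stellate markers 1 was lower and 1 higher. The summed Kupffer level in the Se group was 65.2 to 155 TPM. None of the markers on these lists was at 0 in every library.

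As a class the Zfp genes were expressed at low levels. The members had a median of 3.11 TPM (quartiles 1.97 and 6.52), against 7.74 TPM over all genes tested, and 30 of them reached 10 TPM. TPM are scaled to transcript length, so levels can be compared between genes. The most abundant member was Zfp970 at 67.2 TPM, a KRAB gene on chromosome 2 with 14 finger stretches. It varied widely within groups, from 39.96 to 106 TPM in the control group and from 55.9 to 108 TPM in the Cd group, and the groups overlapped. Zfp445, a KRAB protein that helps to keep imprinted genes marked, followed at 60.3 TPM. Next came Zfp36l1 at 51.7 and Zfp36 at 41.5 TPM, the CCCH decay factors, then Zfp706 at 30.3, Zfp207 at 29.9, Zfp91 at 25.8 and Zfp809 at 23.6 TPM. Zfp207 is a spindle and splicing factor (BuGZ), Zfp91 is linked to ubiquitin transfer, and Zfp809 silences proviruses of murine leukaemia virus type.

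The first comparison asked how liver expression changed under Cd alone. In the Cd group 58 of the 252 members (23%) were lower and 6 (2.38%) were higher than in the control group, in a study-wide background in which 24.9% of the 11766 genes were lower and 5.82% were higher (limma, Benjamini-Hochberg adjusted p under 0.05). The median member differed by -0.21 on the log2(TPM + 1) scale, beside -0.17 over all genes. Over the 10483 protein-coding genes tested the median was -0.20, with 27.3% lower and 4.95% higher. With a mean of 1 to 5 TPM, 25.7% of 167 members were lower and 1.2% higher, beside 21.2% and 4.34% of 4376 genes. Members thus lay below or above the background in lower calls, depending on the genes set beside them. After centring, 32 members (12.7%) were lower and 32 (12.7%) were higher, against 15.3% and 19.2% of all genes, and the median member differed by 0.01 beside 0.05. All 32 members that were lower after centring were among the 58, and all 6 that were higher as deposited stayed so. Without Cd mice 5 and 6, 24 members (9.52%) were lower and 7 (2.78%) higher on the TPM as deposited, beside 10.7% and 7.12% of all genes. After centring without these mice, 23 (9.13%) were lower and 18 (7.14%) higher, beside 10.6% and 12.5%. The excess of lower over higher members was thus smaller without these mice, and after centring the numbers were equal with them and close without them. The count of 6 higher members was 3 without control mouse 28, 29 or 30 and 2 without Cd mouse 1. On the TPM as deposited, the Cd and control groups did not overlap for 66 members with lower Cd values and 10 with higher ones. These were 26.2% and 3.97% of the members, against 27.8% and 6.44% of all genes. After centring the groups did not overlap for 38 members with lower values (15.1%) and 34 with higher ones (13.5%), against 17.8% and 20.8% of all genes.

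**Figure D2:**
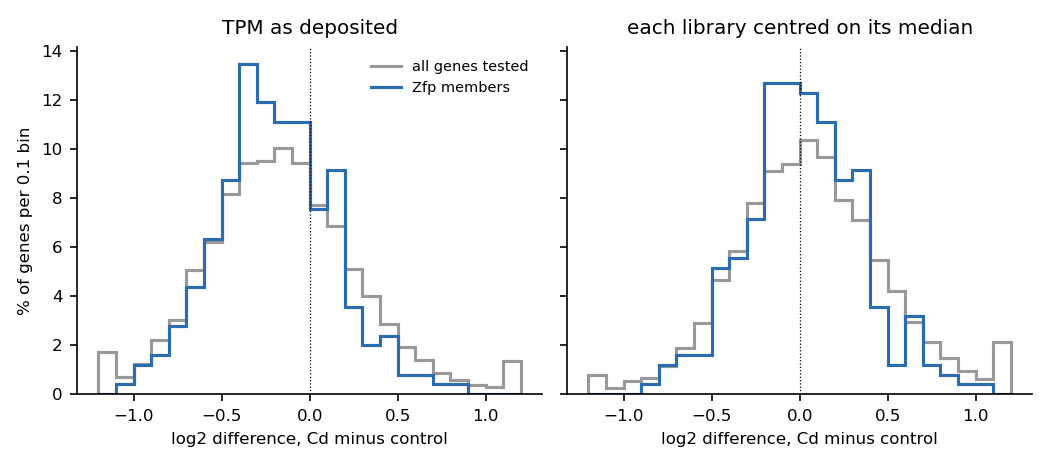
Distribution of the log2(TPM + 1) difference between the Cd and control groups for the 252 Zfp members (blue) and the 11766 genes tested (grey), as percent of genes in bins of 0.1, before (left) and after (right) centring each library on its median. Values beyond the axis are counted in the end bins. The member median moves from -0.21 to 0.01 with centring.

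The member that fell most on the log2(TPM + 1) scale, which understates changes of low genes, was Zfp961 (chr8:71951038-71993792, + strand). It is a KRAB protein with 11 finger stretches that is known to repress retroviruses through their primer binding site. It was at 6.84, 5.13, 6.28 and 3.95 TPM in control mice 27 to 30 and at 2.47, 2.21, 1.37 and 2.49 TPM in Cd mice 1, 2, 5 and 6. Every Cd mouse lay below every control mouse. The log2 difference was -1.06 ± 0.16 (SE, adjusted p = 0.000359), it was -0.84 after centring, and it was -0.95 without Cd mice 5 and 6 (adjusted p = 0.00392, with a range of 0.000223 to 0.00397 over all alternatives).

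Zfp664 (chr5:124862691-124902693, + strand), with 9 finger stretches and no KRAB stretch, was at 9.68, 10.5, 9.98 and 9.24 TPM in the control mice. In the Cd mice it was at 6.07, 5.32, 2.66 and 4.82 TPM, so the groups were apart and mouse 5 was the lowest. The difference was -0.97 ± 0.17 (adjusted p = 0.000948), -0.75 after centring, and -0.70 without Cd mice 5 and 6 (adjusted p = 0.00591, 0.000231 to 0.00639 over all alternatives). Zfp768 (chr7:127342795-127345589, - strand), an array of 10 finger stretches, went from a mean of 7.47 TPM in the control group to 3.54 TPM in the Cd group (log2 difference -0.93, adjusted p = 0.00151). It was -0.71 after centring and -0.69 without Cd mice 5 and 6 (adjusted p = 0.0175, 0.000606 to 0.0175 over all alternatives). Its control values were 6.52 to 8.06 TPM and its Cd values 2.10 to 4.26 TPM, which do not overlap.

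Zfp770 (chr2:114193461-114201469, - strand) had nearly equal values in the Cd mice. Its levels were 1.09, 1.07, 0.96 and 0.94 TPM in the Cd mice and 2.27, 2.55, 3.2 and 2.37 TPM in the control mice. Here Cd mice 5 and 6 did not stand apart from mice 1 and 2. The difference was -0.83 ± 0.12 (adjusted p = 0.000381), -0.61 after centring, and -0.78 without Cd mice 5 and 6 (adjusted p = 0.00542, 0.000223 to 0.00605 over all alternatives).

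The other members of the 10 that fell most with groups apart were Zfp800, Zfp609, Zfp346, Zfp146, Zfp324 and Zfp955b. Zfp800 went from 4.47 ± 0.76 to 1.89 ± 0.54 TPM. Zfp609, a partner of the cohesin loader NIPBL, went from 3.85 ± 0.44 to 1.71 ± 0.52 TPM, and Zfp346, a binder of double-stranded RNA, from 3.46 ± 0.71 to 1.46 ± 0.31 TPM. Log2 differences of the 6 lay between -0.93 for Zfp800 and -0.73 for Zfp955b. After centring, Zfp955b no longer passed (-0.51, adjusted p = 0.125), whereas the other 5 did. Without Cd mice 5 and 6, Zfp146 (-0.47, adjusted p = 0.0836) and Zfp955b (-0.68, adjusted p = 0.124) did not pass. Over all alternatives the adjusted p of Zfp146 ranged from 0.00261 to 0.0836 and that of Zfp955b from 0.00488 to 0.213, which was also lost without control mouse 27 or 29 or Cd mouse 5. Opposite-strand exons of another gene cover 12.2% of the exonic bases of Zfp955b, so part of its reads may not be its own if reads were counted without strand.

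Higher levels under Cd were led by Zfp706 (chr15:36997027-37007773, - strand), a small protein with 1 finger that in embryonic stem cells promotes exit from self-renewal. It was at 27.8, 21.5, 22.6 and 21.4 TPM in the control mice and at 56.5, 46.7, 39.5 and 32.0 TPM in Cd mice 1, 2, 5 and 6. All 4 Cd mice were above all control mice, and the mice with the low library medians were the lower ones. The difference was 0.85 ± 0.19 (adjusted p = 0.00432), 1.07 after centring (adjusted p = 0.000332), and 1.11 without Cd mice 5 and 6 (adjusted p = 0.00555, 0.000228 to 0.0152 over all alternatives).

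Zfp622, an assembly factor of the large ribosomal subunit, was at 8.92, 7.40, 8.70 and 7.66 TPM in the control mice and at 13.7, 10.8, 10.9 and 12.2 TPM in the Cd mice (0.49 ± 0.16, adjusted p = 0.0315). Zfp715 was at 5.49 to 6.21 TPM in the control group and 6.67 to 9.50 TPM in the Cd group, a difference of 0.41 ± 0.12 (adjusted p = 0.0139). For both genes no control mouse reached the lowest Cd mouse. Zfp653 (0.43, adjusted p = 0.0409) and Zfp53 (0.38, adjusted p = 0.0291) were the remaining members that rose with groups apart, and the sixth member past the threshold, Zfp707 (0.55, adjusted p = 0.0397), had overlapping groups. Without Cd mice 5 and 6, Zfp715 and Zfp653 still passed (adjusted p = 0.00995 and 0.0147), while Zfp622 (0.0937), Zfp53 (0.083) and Zfp707 (0.0595) did not. Over all alternatives the adjusted p ranged up to 0.0444 for Zfp715, 0.12 for Zfp653, 0.0937 for Zfp622, 0.083 for Zfp53 and 0.106 for Zfp707. Zfp715 passed in each of them. The others were lost in turn when single mice were left out, each of them without Cd mouse 1 and likewise without control mouse 30. After centring, the 5 members that rose most were Zfp706, Zfp950 (0.94), Zfp579 (0.89), Zfp707 (0.77) and Zfp968 (0.74). For Zfp579, control mouse 30 was at 7.56 TPM and the other control mice at 1.77 to 2.40 TPM. Zfp968 is among the members whose sequence is shared with other genes, with a share of 98.6%.

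**Figure D3:**
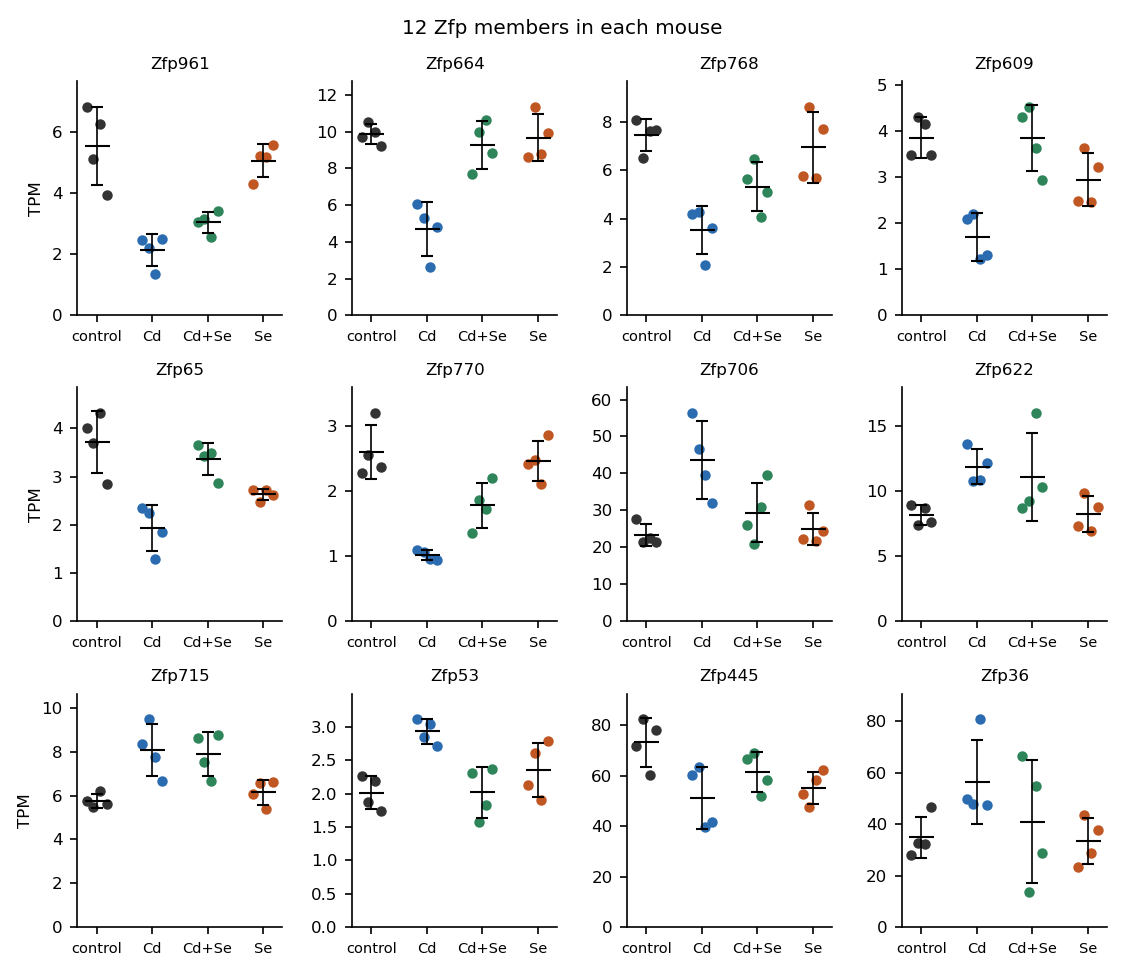
Levels in TPM of 12 Zfp members in each mouse (points) with the group mean and SD (bars, n = 4), by group, each panel on its own axis starting at 0. The Cd points of Zfp961, Zfp664, Zfp768, Zfp609, Zfp65 and Zfp770 lie below all control points, and those of Zfp706, Zfp622, Zfp715, Zfp53 and Zfp36 lie above them.

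Members with a known role did not move as a block. The 3 decay factors Zfp36, Zfp36l1 and Zfp36l2 gave 0 calls. Zfp36 (tristetraprolin) was at 28.2, 33.0, 32.3 and 46.6 TPM in the control mice and at 49.8, 48.0, 81.1 and 47.4 TPM in the Cd mice, so the groups were apart by a narrow margin, and the difference of 0.66 ± 0.36 missed the threshold (adjusted p = 0.174). In the Cd+Se group it ranged from 13.9 to 66.6 TPM. Zfp36l1 and Zfp36l2 differed by 0.08 and 0.05. Antisense exons cover 55.9% of the exonic bases of Zfp36l1.

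Of the 8 listed regulators of imprints and retroviral sequences, 5 are members. Zfp961 fell, as above, and Zfp445 fell from 73.1 ± 9.6 to 51.2 ± 12.3 TPM (-0.53 ± 0.16, adjusted p = 0.021). The Zfp445 groups overlapped, since control mouse 29 was at 60.4 TPM and Cd mouse 2 at 63.5 TPM, and the call was lost after centring (-0.31, adjusted p = 0.113) and without Cd mice 5 and 6 (-0.23, adjusted p = 0.302). It was lost as well without control mouse 28 or 30 or Cd mouse 5 or 6, with an adjusted p of 0.0103 to 0.524 over all alternatives. Zfp809, Zfp568, which represses a placental Igf2 promoter, and Zfp932, which acts on endogenous retroviruses, differed by 0.13, -0.15 and -0.26 and did not pass.

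Of 29 listed gene regulators, 21 are members, of which 3 (14.3%) were lower and 0 higher, beside 24.9% and 5.82% of all genes. The 3 were Zfp609, Zfp148 (from 6.08 to 3.72 TPM in group means, -0.59, adjusted p = 0.00676) and Zfp143 (-0.64, adjusted p = 0.0194). Zfp143 was lost without control mouse 28 or 29 and after centring (0.0769), and both Zfp143 and Zfp148 were lost without Cd mice 5 and 6, with adjusted p of up to 0.187 and 0.0663 over all alternatives. Zfp148 (ZBP-89) binds GC-rich promoters, and Zfp143 binds many promoters and also small nuclear RNA genes. The other 18 lay between -0.48 for Zfp703 and 0.45 for Zfp511. After centring 2 of the 21 (9.52%) were lower and 4 (19%) were higher, beside 15.3% and 19.2%, the latter being Zfp511, Zfp219, Zfp592 and Zfp384. Zfp410, known as a dedicated activator of the remodeler gene Chd4, was at 10.6 to 19.9 TPM in the Cd group and 11.3 to 13.8 TPM in the control group (0.13, adjusted p = 0.602).

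All 14 genes listed for RNA, ribosome or protein turnover roles are members, of which 3 (21.4%) were lower and 2 (14.3%) higher on both scales. The shares of all genes were 24.9% and 5.82% as deposited and 15.3% and 19.2% after centring. When Cd mice 5 and 6 were left out, 1 was lower and 1 higher. Zfp346, Zfp91 (-0.59, adjusted p = 0.00608) and the RNA-binding protein Zfp106 (-0.67, adjusted p = 0.00892) were lower, and Zfp706 and Zfp622 were higher. Zfp91 was at 26.8 to 32.2 TPM in the control group and at 14.6 to 22.8 TPM in the Cd group. Zfp598, the ubiquitin ligase that marks collided ribosomes, was at 15.3 to 17.1 TPM in the control group and at 10.1 to 16.2 TPM in the Cd group, and its difference of -0.31 did not pass (adjusted p = 0.147). Values of Zfp91 and Zfp106 without Cd mice 5 and 6 were -0.41 and -0.39, with adjusted p of 0.0655 and 0.106 (ranges over all alternatives 0.00285 to 0.0655 and 0.00368 to 0.107). Opposite-strand exons of another gene cover 26.1% of the exonic bases of Zfp106, so the caution given for Zfp955b holds for it as well. The same holds for Zfp593 (77.9%), Zfp335 (28.3%), Zfp652 (19.3%), Zfp703 (13.5%) and Zfp219 (12.7%), which are counted in these lists.

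The proteins with which KRAB members work were read from a list of 30 genes, of which 28 could be tested. In the Cd group 10 (35.7%) were lower and 0 higher, beside 24.9% and 5.82% of all genes. After centring 5 (17.9%) were lower and 3 (10.7%) higher, beside 15.3% and 19.2%. Pphln1, a subunit of the HUSH silencing complex, fell most, from 7.70 ± 1.58 to 3.63 ± 0.52 TPM (-0.90 ± 0.12, adjusted p = 0.000236). Chd4, of the NuRD remodeling complex, Daxx, a histone H3.3 chaperone, Mphosph8, another HUSH subunit, and Chd3 followed with -0.67, -0.66, -0.63 and -0.50, and Chd3 did not pass after centring (-0.28, adjusted p = 0.074). Trim28, the corepressor itself, was at 34.3 ± 2.4 TPM in the control group and 40.2 ± 7.1 TPM in the Cd group (0.21, adjusted p = 0.292), and it was called higher after centring (0.43, adjusted p = 0.00608). Without Cd mice 5 and 6, 2 of the 28 (7.14%) were lower, beside 10.7% of all genes. Thus at most 2 of the genes named here as lower kept their call.

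Related families of DNA-binding zinc finger factors were counted in the same way. Among 33 Zbtb genes 7 (21.2%) were lower and 0 higher, among 15 Zkscan and Zscan genes 4 (26.7%) were lower and 1 (6.67%) higher, and among 11 Klf genes 1 (9.09%) was lower and 1 higher, beside 24.9% and 5.82% of all genes. After centring 5 and 3 Zbtb genes, 1 and 2 Zkscan and Zscan genes, and 1 and 4 Klf genes were lower and higher. When Cd mice 5 and 6 were left out, the numbers were 3 and 2, 1 and 1, and 1 and 0. The median difference was -0.13 for Zbtb, -0.20 for Zkscan and Zscan, and 0.08 for Klf genes, and differences between families were not tested. Of 7 listed genes for metallothioneins, metal transporters and Mtf1, 2 (28.6%) were higher, which are Mt1 and Mt2. Another 2 (28.6%) were lower, which are Slc30a10 and Slc39a14. After centring 3 were higher and 2 lower, and without Cd mice 5 and 6, 2 were higher and 0 lower. Mtf1 was at 5.28 TPM in the control group and 4.25 TPM in the Cd group (-0.26, adjusted p = 0.248). Of 14 immediate-early genes tested 1 (7.14%) was higher and 0 were lower. That gene, Nr4a1, varied widely in the Cd group (8.3 ± 8.1 TPM). After centring 3 (21.4%) were higher, beside 19.2% of all genes, and without Cd mice 5 and 6 it was 0, beside 7.12%. Of 3 nuclear RNAs tested, Malat1 (0.92) and Snhg11 (2.20) were higher. The part of these RNAs in the Zfp results was not tested.

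The second comparison asked whether the Se diet altered the state of Cd-injected liver. Against the Cd group, 23 members (9.13%) were higher and 2 (0.794%) were lower in the Cd+Se group, beside 13.6% and 2.35% of all genes. The same 4 Cd mice stand in both comparisons, so a low Cd value alone lowers one difference and raises the other. After centring 8 members (3.17%) were higher and 10 (3.97%) lower, beside 7.96% and 10.8%. The count of higher members was 4 without Cd mouse 5, 8 without Cd+Se mouse 14, 14 without Cd+Se mouse 16 and 1 without Cd mice 5 and 6. A model of the Cd and Cd+Se groups alone gave 0. Without Cd mice 5 and 6, 0.397% of the members and 1.87% of all genes were higher, so the loss was not particular to the members. Shares of all genes are not given for the other settings. The count of 2 lower members fell to 0 without Cd mouse 1, Cd mouse 5, Cd+Se mouse 14 or Cd+Se mouse 15, to 1 without any control mouse, Cd mouse 2, Cd+Se mouse 13 or Se mouse 39, and was 3 without Cd+Se mouse 16 or Se mouse 40.

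Among the higher members whose groups did not overlap, Zfp664 and Zfp982 had the largest differences. Zfp664 was at 7.67, 9.98, 10.7 and 8.85 TPM in Cd+Se mice 13 to 16, above all 4 Cd mice and overlapping the control values (Cd+Se minus Cd 0.88 ± 0.17, adjusted p = 0.00686). After centring it still passed (0.69, adjusted p = 0.00141), and over all alternatives the adjusted p ranged from 0.00141 to 0.0676. Zfp982, a KRAB gene of a chromosome 4 group, was at 13.3, 23.7, 12.4 and 12.8 TPM in the Cd+Se mice and at 9.72, 9.07, 4.36 and 8.96 TPM in the Cd mice (0.88 ± 0.22, adjusted p = 0.0192). Its distance owed much to Cd+Se mouse 14 at the top and Cd mouse 5 at the bottom, and without either of them it did not pass (adjusted p of 0.0144 to 0.138 over all alternatives).

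Zfp609 was at 4.30, 4.53, 3.64 and 2.94 TPM in the Cd+Se mice, against 2.1, 2.2, 1.22 and 1.3 TPM in the Cd mice (0.85 ± 0.16, adjusted p = 0.00601). Zfp346 (0.64, adjusted p = 0.018) and Zfp65 (0.58, adjusted p = 0.0142) were the other 2 of the 5 that rose most with groups apart. All 5 also passed after centring. Without Cd mouse 5, Zfp346 did not pass, and without Cd mice 5 and 6 none of Zfp982, Zfp609, Zfp346 and Zfp65 did, with adjusted p of up to 0.138, 0.0564, 0.102 and 0.135 over all alternatives. On the lower side Zfp53, a KRAB gene of a dense chromosome 17 cluster, was at 2.30, 1.58, 1.83 and 2.37 TPM in the Cd+Se mice and at 3.12, 2.84, 3.04 and 2.71 TPM in the Cd mice (-0.39 ± 0.12, adjusted p = 0.0463, 0.00598 to 0.14 over all alternatives). The other lower member, Zfp692, had overlapping groups. It is named because it completes a count of 2, after its values were seen: its levels were 1.38 to 2.92 TPM in the Cd+Se group and 2.64 to 4.66 TPM in the Cd group (-0.61, adjusted p = 0.0295). Zfp706 was at 26.1, 20.9, 31.0 and 39.7 TPM in the Cd+Se mice and missed the threshold as deposited (-0.56 ± 0.19, adjusted p = 0.0577), while it passed after centring (-0.76, adjusted p = 0.0071).

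The effect of Cd under the Se diet was read from the Cd+Se group against the Se group, which share no mouse with the Cd and control groups. With limma 0 of the 252 members passed as deposited, beside 0.17% of all genes lower and 0.544% higher. An unadjusted p under 0.05 was found for 14 members, a smaller share than among all genes tested. The 58 members that were lower with Cd under the plain diet had a median of -0.59 there and of -0.07 under the Se diet, where their differences ran from -0.59 to 0.30. For the 6 that were higher the medians were 0.46 and 0.25. These members were picked by their plain diet values, so the larger plain diet medians are a description only. Whether the effect of Cd differed between diets is addressed gene by gene by the interaction.

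For the interaction, 2 members (0.794%) passed, both with a positive term, beside 0.901% of all genes with a positive and 0.136% with a negative term. Zfp609 was lower with Cd under the plain diet (-0.86) and 0.30 higher with Cd under the Se diet, an interaction of 1.16 ± 0.22 (adjusted p = 0.0341). Its Se values were 2.48, 3.63, 2.46 and 3.22 TPM, below the control mean of 3.85 TPM. Zfp65, a KRAB gene on chromosome 13 (chr13:67705309-67729173, - strand) flanked on both sides by other Zfp genes, was at 4.02, 3.70, 4.33 and 2.84 TPM in the control mice and 2.36, 2.24, 1.29 and 1.85 TPM in the Cd mice. In the Se mice it was at 2.72, 2.47, 2.72 and 2.63 TPM and in the Cd+Se mice at 3.66, 3.43, 3.49 and 2.88 TPM. Thus the Cd group lay below control while the Cd+Se group lay above the Se group, and the interaction was 0.95 ± 0.19 (adjusted p = 0.0343). Both calls held after centring (0.97, adjusted p = 0.0081, and 0.77, adjusted p = 0.0158), and both were lost without Cd mice 5 and 6 (adjusted p = 0.0757 and 0.0736). Each was also lost without control mouse 27, 28 or 29, Cd+Se mouse 14, or Se mouse 39, 41 or 44, and Zfp65 without Cd mouse 6. Over all alternatives the adjusted p ran from 0.00806 to 0.0882 for Zfp609 and from 0.0151 to 0.092 for Zfp65. Without Se mouse 40, 5 members passed. After centring, 4 members passed with a positive and 2 with a negative term, beside 2.68% and 3.54% of all genes, the negative ones being Zfp706 (-0.83) and Zfp53 (-0.72).

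**Figure D4:**
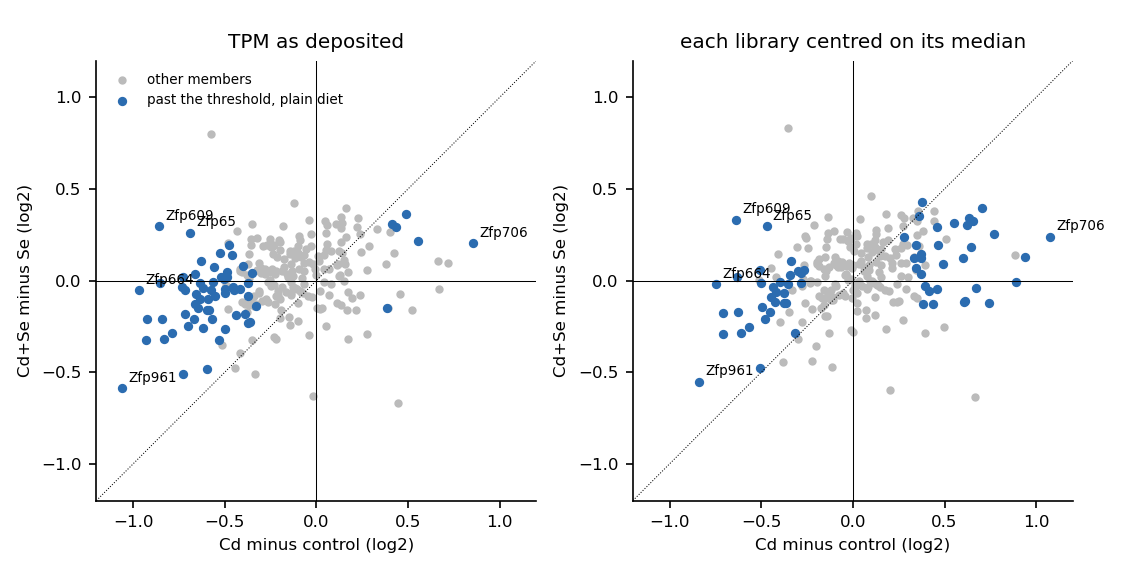
Effect of Cd on each of the 252 members under the plain diet (Cd minus control, horizontal) and under the Se diet (Cd+Se minus Se, vertical), on the log2(TPM + 1) scale as deposited (left) and after centring (right). Blue points passed the threshold under the plain diet, and the dotted line marks equal effects. Zfp961 lies low on both axes, and Zfp609 and Zfp65 lie left of 0 and above 0.

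Zfp961, the member that fell most on the log2(TPM + 1) scale under the plain diet, was low with Cd under the Se diet too. It was at 3.05, 3.15, 2.57 and 3.41 TPM in the Cd+Se mice and at 4.31, 5.22, 5.19 and 5.57 TPM in the Se mice, so every Cd+Se mouse was below every Se mouse. As deposited the difference of -0.59 ± 0.16 did not pass (adjusted p = 0.118), and after centring it did (-0.55, adjusted p = 0.0457), as the only member. That call was lost without Cd mice 5 and 6 and without Cd mouse 1, 2 or 5, which enter this comparison only through the shared estimate of the spread. Against the control group the Cd+Se group was lower by -0.68 ± 0.16 (adjusted p = 0.0754), and by -0.65 after centring (adjusted p = 0.0241). Its interaction was 0.47 (adjusted p = 0.233), which does not show that the effect was equal on both diets.

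Against the control group, 0 members passed in the Cd+Se group (limma), beside 0.17% of all genes lower and 0.314% higher. Here too 14 members had an unadjusted p under 0.05, a smaller share than among all genes tested. The Se diet alone gave 0 calls among the members and 0 among all 11766 genes, with 7 members and 454 genes at an unadjusted p under 0.05. The median member differed by -0.02 in both comparisons. Among the abundant members, Zfp445 was at 47.6 to 62.1 TPM in the Se group and 60.4 to 82.6 TPM in the control group (-0.39 ± 0.16, not past the threshold).

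The members differed in structure, and the Cd change was read against it. Patterns of 1 C2H2 finger were counted in the coding sequences: members held 0 to 36 of them with a median of 10, and 134 members held 10 or more. A KRAB stretch was found in 121 members. Of these, 27 (22.3%) were lower and 3 higher in the Cd group, and of the 131 members without one 31 (23.7%) were lower and 3 higher. Both shares lie near the 24.9% of all genes. The medians were -0.20 and -0.22, and a difference between the 2 kinds was not tested. Of the 26 members with 1 to 3 fingers 3 (11.5%) were lower and 2 (7.69%) higher. Of the 83 with 4 to 9 fingers 21 (25.3%) were lower and 2 (2.41%) higher, and of the 134 with 10 or more 34 (25.4%) were lower and 2 (1.49%) higher. The shares of all genes were 24.9% and 5.82%. After centring, 11.5%, 14.5% and 12.7% of these sets were lower, beside 15.3% of all genes, and 23.1%, 14.5% and 10.4% were higher, beside 19.2%. Differences between these sets were not tested. The 9 members in which no finger pattern was found, among them the CCCH genes, gave 0 calls. Across the 252 genes, the rank correlation of the Cd difference was -0.09 with the number of fingers, -0.22 with transcript length and 0.14 with the mean level. It is a description, since genes of the same libraries are not independent.

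**Figure D5:**
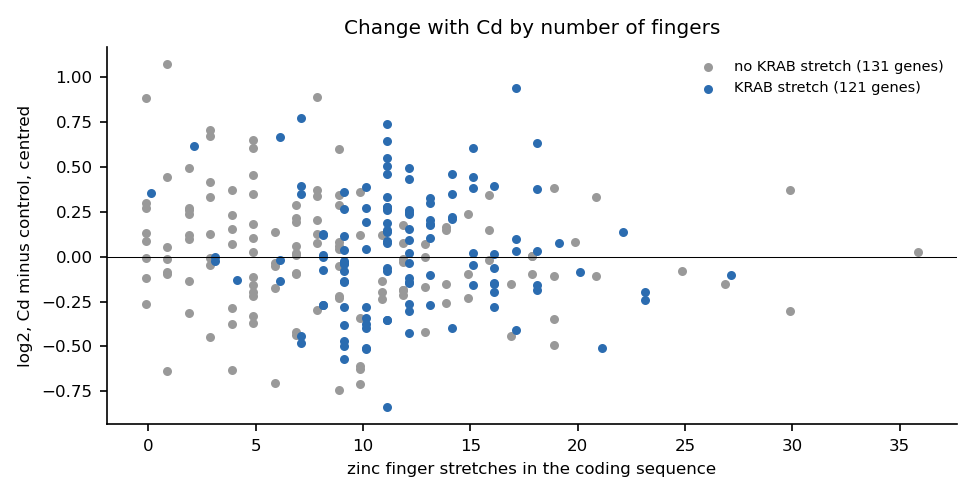
Difference between the Cd and control groups after centring (log2 scale, vertical) against the number of finger stretches in the coding sequence (horizontal) for 121 members with and 131 without a KRAB stretch. Higher and lower values occur at every common number of fingers and in both kinds.

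The genes lie on 20 chromosomes, with 52 on chromosome 7, 39 on chromosome 17 and 26 on chromosome 13. Of the 252 members, 126 have another Zfp gene as a next protein-coding neighbour. Of the 54 members flanked by Zfp genes on both sides 16 (29.6%) were lower with Cd and 1 was higher. Of the 72 members with 1 such neighbour 16 (22.2%) were lower and 2 higher, and of the 126 with none 26 (20.6%) were lower and 3 higher. The share of lower genes was 24.9% over all genes tested. After centring 16.7%, 12.5% and 11.1% of the members with 2, 1 and 0 such neighbours were lower, beside 15.3% of all genes, and 9.26%, 11.1% and 15.1% were higher, beside 19.2%. Differences between these sets were not tested.

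Promoters were searched for the core of the metal response element bound by MTF-1, written TGCACNC or TGCGCNC, on both strands. Since TGCGCA reads the same on both strands, matches can overlap. RefSeq promoters (GRCm38.p6, 250 bases before to 50 after the start) were found for 212 members. The core was present in 27.8% of 263 member promoters and in 25.7% of all 32851 promoters. The bases CG, which the form TGCGCNC contains, occurred a median of 14 times in member promoters and 7 times in all promoters. The shares of promoters given here are not matched for this. Among the 38 members called in the same direction in the Cd group on both scales, 31 had a promoter, and the core was in 12 of their 37 promoters (32.4%). Windows of 27 bases around it are shown for 4 members that fell, with the core in capitals, to let the matches be compared.
Zfp664, chr5:124862655-124862681, + strand: gcctggcgcgTGCGCACgcgcgccgtc
Zfp770, chr2:114201429-114201455, - strand: acgccgcgctTGCGCACtcagccagtc
Zfp346, chr13:55105345-55105371, + strand: tggagtgtccTGCGCCCgatgctacgg
Zfp148, chr16:33381308-33381334, + strand: gaaggtgggaTGCACGCggggaggcct
A match is a run of letters and not a bound site.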

How the data were processed

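Poly(A)-selected liver RNA of 16 mice was sequenced by a company. The deposited values are TPM, which the authors' pipeline scaled to 1 total per library, so the depth is unknown and neither counting intervals nor floors are given. The submitters' processing notes name fastp, HISAT2, StringTie and the build GRCh38, a human build, although the rows are mouse Ensembl genes. Versions and strand setting are not given in the sources used here. What rep1 and rep2 in the sample titles stand for is not given either, and each mouse has 1 column. P-values measure the spread between these mice.

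The 11766 genes whose mean reached 1 TPM were compared as log2(TPM + 1), a scale that understates changes of low genes, with limma 3.58.1 in R 4.3.3. One model held a mean for each of 4 groups, eBayes used a trend, and 6 contrasts were adjusted by Benjamini-Hochberg over all genes at 0.05. Centring subtracted each library's median over the genes tested. Library medians were compared by the exact permutation test over 70 arrangements. The steps were tested on simulated data.

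The members, lists and alternatives were chosen with earlier results of these data known. Named members are the 8 most abundant, those that changed most with groups apart in Cd against control (10 lower, 5 higher), in Cd+Se against Cd and in Cd+Se against Se (5 each way), those past the threshold for the interaction or Se, the 5 that changed most each way after centring, members of the role lists, and those at the 1 TPM limit. Fingers (2 cysteines 2 to 4 residues apart, 12 residues, 2 histidines 3 to 5 apart), KRAB stretches and positions come from GENCODE M21 (GRCm38) coding sequences by codon, in place of a protein table.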

Additional observations from a re-analysis of the deposited data

Results flagged for a closer look

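The values of 63 named members were looked at in 252 groups of 4 mice for a mouse far from the other 3, measured by Dixon's ratio, the distance to the next value as a share of the spread from lowest to highest. The ratio was above its 95% limit in 10 groups, and chance alone gives about 1 in 20 groups (12.6 of 252). In the control group Zfp106 was at 12.7 TPM in mouse 30 and at 15.8 to 16 TPM in the others (0.926), and Zfp111 at 1.18 TPM in mouse 27 and at 1.36 to 1.37 TPM in the others (0.947). Zfp324 was at 1.86 TPM in control mouse 29 against 1.65 to 1.68 TPM (0.857), and Zfp579 at 7.56 TPM in control mouse 30 against 1.77 to 2.40 TPM (0.891). In the Cd group Zfp36 was at 81.1 TPM in mouse 5 against 47.4 to 49.8 TPM (0.929), Zfp707 at 16.1 TPM in mouse 6 against 22.5 to 23.1 TPM (0.914), and Zfp982 at 4.36 TPM in mouse 5 against 8.96 to 9.72 TPM (0.858). In the Cd+Se group mouse 14 stood high for Zfp809, at 34.2 against 22.0 to 22.5 TPM (0.959), and for Zfp982, at 23.7 against 12.4 to 13.3 TPM (0.914). In the Se group Zfp143 was at 4.04 TPM in mouse 40 against 2.42 to 2.57 TPM (0.907). The interaction passed the threshold for Zfp609, by 1.16 ± 0.22 on the log2 scale (limma, adjusted p = 0.0341), and for Zfp65, by 0.95 ± 0.19 (adjusted p = 0.0343). These 2 are 0.794% of the members, beside 0.901% of all genes with a positive term. Of 28 alternatives, 9 lost the call for Zfp609 and 11 that for Zfp65, and leaving out Cd mice 5 and 6 lost both.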

How the results depend on the processing

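The counts of members and the medians that changed with a setting are given here, for the contrasts in the order Cd against control, Cd+Se against Cd, and the interaction of Cd and Se. Without a filter on low values 2 members were higher in Cd, 12 were higher and 0 lower in Cd+Se against Cd, and 0 passed for the interaction. With a mean of at least 5 TPM, which leaves 85 members, 15 were lower in Cd. In Cd+Se against Cd 6 were then higher and 0 lower, and 0 passed for the interaction. Zfp609 (3.09 TPM), Zfp65 (2.91 TPM) and Zfp53 (2.33 TPM) fall under this limit, so the setting could give no call for them. The shares of all genes under these 2 filter settings are not given. Centring gave 32 higher and 32 lower (median 0.014), 8 higher and 10 lower (median -0.0096), and 4 higher and 2 lower (median 0.029). Quantile normalization gave 27 higher (10.7%) and 39 lower (15.5%) in Cd (median -0.016), beside 14.5% and 19.3% of all genes. For Cd+Se against Cd it gave 9 higher (3.57%) and 8 lower (3.17%, member median 0.014), beside 9.94% and 7.72% of all genes. For the interaction it gave 5 higher (1.98%) and 2 lower (0.794%, member median 0.049), beside 2.79% and 1.67%. Centring and quantile normalization both gave 1 lower member, Zfp961, in Cd+Se against control and against Se. With only the groups compared in the model, Cd+Se against Cd gave 0 higher and 0 lower members. The share of all genes is not given there. Leaving out Cd mice 5 and 6 was chosen after seeing the data, like the settings that combine centring with left-out mice. Without these mice 7 (2.78%) were higher and 24 (9.52%) lower in Cd (median -0.060), beside 7.12% and 10.7% of all genes. In Cd+Se against Cd 1 (0.397%) was higher and 0 lower (median 0.046), beside 1.87% and 1.84%. For the interaction 0 passed (median 0.073), beside 0.187% of all genes with a positive and 0.11% with a negative term. Centred without these mice, 18 (7.14%) were higher and 23 (9.13%) lower in Cd (median 0.0052), beside 12.5% and 10.6% of all genes. In Cd+Se against Cd 5 (1.98%) were higher and 4 (1.59%) lower (median 0.0067), beside 3.35% and 4.78%. For the interaction 2 (0.794%) were higher and 0 lower (median 0.044), beside 0.926% and 1.16%. In Cd+Se against control 1 (0.397%) was lower, beside 0.221%.

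Leaving out 1 mouse at a time on the TPM as deposited gave 2 to 8 higher and 41 to 66 lower members in Cd (median -0.25 to -0.12), 4 to 34 higher and 0 to 3 lower in Cd+Se against Cd (median 0.10 to 0.25), and 0 to 5 higher for the interaction (median 0.14 to 0.26). After centring, leaving out 1 Cd mouse at a time gave 19 to 31 higher and 23 to 32 lower in Cd (median 0.0099 to 0.028), 3 to 9 higher and 3 to 14 lower in Cd+Se against Cd (median -0.023 to 0.0070), and 3 to 5 higher and 0 to 3 lower for the interaction (median 0.014 to 0.047). In Cd+Se against control and against Se, leaving out 1 mouse gave at most 1 lower and 0 higher members. Shares of all genes with 1 mouse left out are not given, so whether these ranges are particular to the members was not tested.

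Of 998 values of named members under the alternatives, 830 stayed past the threshold, 168 did not and 0 turned direction. The library medians gave the same call over protein-coding genes. TPM keep no depth, so the precision rests on the spread between mice within groups. The model pools this spread over the 4 groups, with 12 residual degrees of freedom, and eBayes moves it towards that of other genes. No paired analysis was possible because the mouse numbers of the 4 groups differ.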
